A study of Caenorhabditis elegans with 2 samples.

Results

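The nuclear hormone receptor genes of C. elegans were taken as all protein-coding genes whose name starts with nhr- in the Ensembl annotation of WBcel235. There were 269 of them among 19973 protein-coding genes on the 6 nuclear chromosomes. The rule for membership uses only the gene name, and the family was picked for description with earlier results of these data known. Binding of the zinc finger protein ZTF-22 had been profiled by chromatin immunoprecipitation and sequencing in whole young adult worms of strain OP676, of mixed sex, 68 hours old and synchronised as starved L1 larvae after bleaching. The animals were unc-119(tm4063) mutants. Their transgene, wgIs676, encodes ZTF-22 with TY1, EGFP and 3xFLAG tags at its C-terminal end, beside a working unc-119(+) copy. The sample description gives an antibody against GFP for the pulldown, whereas the antibody tag reads ztf-22. There was 1 group with 2 biological replicates of this single strain and no other condition. Whole animals were used, so a region bound in a few cells and a region bound weakly in many cells cannot be told apart.

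Nuclear hormone receptors are transcription factors with a zinc finger domain that binds DNA and another domain that can bind small lipophilic ligands. Nematodes carry far more of them than other animals, mostly through expansion of receptors related to the vertebrate factor HNF4, and many of these genes lie in clusters on chromosome V. Several members act in the intestine, where they set the expression of genes for fat breakdown, fatty acid desaturation, vitamin B12-dependent metabolism and detoxification. Others are counterparts of receptors found across animals and act in moulting and development. In C. elegans many annotated transcript starts are sites where a spliced leader is joined on, so the place where transcription begins can lie further upstream.

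The values are the authors' region lists on ce11: 30000 candidate regions for each replicate and 30000 for the pooled reads, weak background regions included, and 952 optimal peaks. The optimal list was identical to the first 952 pooled regions by signal value. Each region was ranked by its signal value within its own list, rank 1 being the strongest, because the scale differs between lists (median 48.4 in the pooled list, 19.2 in replicate 1 and 34.5 in replicate 2). For that reason no mean or SD over the replicates is given, and both replicates are shown. A gene's promoter window ran from 500 bp upstream to 200 bp downstream of any of its annotated transcript starts, and a gene was given the best-ranked summit in that window. Read depth is unknown, since the lists hold no read totals. No receptor gene lay within 25000 bp of ztf-22 or unc-119, where reads could come from the transgene.

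The receptor genes nhr-68, nhr-35, nhr-1, nhr-49, nhr-57, nhr-66 and nhr-8, had an optimal ZTF-22 peak in the promoter window, and nhr-19 and nhr-3 had one in an intron. The 7 promoter peaks made up 2.6% of the 269 receptor genes (exact Clopper-Pearson 95% interval 1.05 to 5.29, counting error only), against 382 of all 19973 protein-coding genes, or 1.91%. The receptor genes as a set were thus close to the genome's share, and what follows is about which members carried the strong regions. Within the gene, from its annotated start to its end, 3 receptor genes (1.12%) held an optimal summit, against 1.47% of all protein-coding genes. They were nhr-19, nhr-66 and nhr-3. In the window or the gene, 9 receptor genes (3.35%) held one, against 2.93% of all genes.

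**Figure D1:**
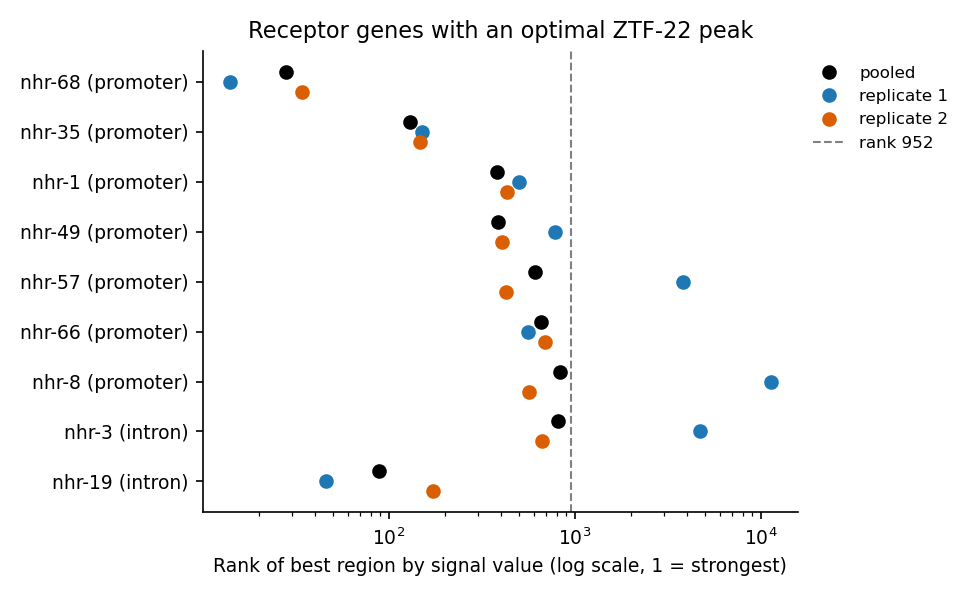
Rank of the best region in the promoter window (7 genes) or in an intron (nhr-3 and nhr-19), on a log scale, in the pooled list (black), replicate 1 (blue) and replicate 2 (orange). The dashed line marks rank 952. nhr-68, nhr-35, nhr-1, nhr-49, nhr-66 and nhr-19 lay left of it in all 3 lists, while nhr-57, nhr-8 and nhr-3 lay right of it in replicate 1.

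The bases around 4 of these summits are shown so that receptor gene sites can be read beside their values. Each run covers up to 75 bp to either side of the summit of the pooled peak, on the strand of the gene in WBcel235, and is cut where an annotated exon begins. The nhr-19 region, in an intron, was added after its value was seen. Capitals mark CTGCGTC at nhr-1 and TGATAA, on either strand, at nhr-68.
nhr-68 (chrV:11572991-11573125, + strand): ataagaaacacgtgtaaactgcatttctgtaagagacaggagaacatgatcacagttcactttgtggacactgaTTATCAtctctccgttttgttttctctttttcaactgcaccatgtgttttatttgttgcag
nhr-1 (chrX:17513636-17513786, + strand): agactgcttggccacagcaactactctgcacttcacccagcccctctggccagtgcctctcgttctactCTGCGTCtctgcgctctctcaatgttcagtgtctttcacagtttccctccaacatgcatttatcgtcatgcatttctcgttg
nhr-57 (chrV:4131635-4131785, + strand): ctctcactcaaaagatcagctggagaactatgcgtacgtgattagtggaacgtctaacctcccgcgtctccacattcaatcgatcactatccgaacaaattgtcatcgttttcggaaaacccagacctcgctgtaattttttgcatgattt
nhr-19 (chrII:9603550-9603700, - strand, intron): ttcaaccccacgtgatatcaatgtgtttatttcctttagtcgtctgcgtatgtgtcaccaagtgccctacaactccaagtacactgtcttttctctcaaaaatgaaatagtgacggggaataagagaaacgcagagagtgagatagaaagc

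Among the 9 genes, the receptor gene with the strongest ZTF-22 region was nhr-68, whose product, together with NHR-10, turns on the propionate breakdown genes used when vitamin B12 is low. Its peak (WBGene00003658, chromosome V, 11573440 to 11575709, + strand) had its summit at 11573050, at an offset of -390 bp from the start (negative offsets are upstream). The signal value was 286.9 in the pooled list (rank 28), 99.3 in replicate 1 (rank 14) and 205.7 in replicate 2 (rank 34). Both replicates therefore placed it among their strongest regions, with summits 30 and 15 bp from the pooled one. Of all the optimal summits in a protein-coding promoter window it was number 8 by rank. The same summit lay at an offset of -60 bp from H12C20.7 (WBGene00305173), a gene on the opposite strand, so it sat closer to that start than to the start of nhr-68. A further candidate summit in an intron of nhr-68 had a pooled rank of 1787, with ranks 11508 and 1242 in replicates 1 and 2.

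The X-linked genes nhr-35 and nhr-1 came next among the promoters, and neither summit lay in the promoter window of another protein-coding gene. The summit at nhr-35 (WBGene00003628, chromosome X, 4532691 to 4537546, + strand) lay at 4532330, an offset of -361 bp. Its signal value was 197.7 in the pooled list (rank 129), 59.6 in replicate 1 (rank 150) and 139.4 in replicate 2 (rank 146). The ranks thus nearly coincided in the 3 lists. The summit at nhr-1 (WBGene00003600, chromosome X, 17514063 to 17528197, + strand) lay at 17513711, an offset of -352 bp, and both replicate summits were 4 bp from it. Its signal value was 148.9 in the pooled list (rank 380), 44.4 in replicate 1 (rank 503) and 104.1 in replicate 2 (rank 431). The nearest other start was that of pdi-2 for nhr-35 (offset 8143 bp) and of sup-10 for nhr-1 (offset -14633 bp).

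The receptors of fat metabolism nhr-49 and nhr-66 also carried promoter peaks in both replicates. NHR-49 promotes fatty acid breakdown and desaturation and is related to HNF4, and NHR-66 binds NHR-49 and takes part in repressing genes of lipid remodelling. At nhr-49 (WBGene00003639, chromosome I, 9869651 to 9874680, + strand) the summit at 9869275 lay at an offset of -376 bp, with a signal value of 147.5 in the pooled list (rank 388), 39.8 in replicate 1 (rank 786) and 106.4 in replicate 2 (rank 408). At nhr-66 (WBGene00003656, chromosome IV, 8226331 to 8236602, - strand) the summit at 8229769 lay at an offset of -192 bp from an internal start, in an annotated untranslated exon. Its signal value was 124.5 in the pooled list (rank 654), 43.2 in replicate 1 (rank 560) and 89.5 in replicate 2 (rank 693). The best summit in the window stood at -80 bp in replicate 1 and at -174 bp in replicate 2, and only the one of replicate 2 lay within 100 bp of the pooled summit. With only the most upstream start of each gene, nhr-66 had no optimal promoter peak.

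At nhr-57 and nhr-8 the promoter region was within the first 952 ranks in replicate 2 and past them in replicate 1. The hypoxia-inducible factor HIF-1 activates nhr-57 when oxygen is low, and NHR-8 acts in resistance to xenobiotics and in cholesterol balance and is related to the vitamin D receptor group. The summit at nhr-57 (WBGene00003647, chromosome V, 4131889 to 4135102, + strand) lay at an offset of -179 bp. Its signal value was 127.6 in the pooled list (rank 611), 27.8 in replicate 1 (rank 3817, q = 0.277) and 104.6 in replicate 2 (rank 427, q = 0.000923). The summit at nhr-8 (WBGene00003607, chromosome IV, 7710983 to 7714210, + strand) lay at an offset of -10 bp. Its signal value was 115.1 in the pooled list (rank 836), 21.0 in replicate 1 (rank 11287, q = 0.604) and 95.5 in replicate 2 (rank 566, q = 0.00265). These q values are the authors' own. In replicate 1 both regions thus lay past rank 952, with signal values above that list's median of 19.2.

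The strongest region inside a receptor gene lay in nhr-19 (WBGene00003618, chromosome II, 9598180 to 9605526, - strand), in an intron 1625 bp downstream of the nearest start. Its signal value was 214.7 in the pooled list (rank 88), 78.4 in replicate 1 (rank 46) and 135.1 in replicate 2 (rank 173). All 3 lists thus placed it among their strongest regions. Another optimal summit lay in an intron of the same gene, 3994 bp downstream of the start of nhr-19 and 3634 bp from that of mrpl-53, at rank 697. It had rank 878 in replicate 2 and no summit within 100 bp in replicate 1. The promoter window of nhr-19 itself held only a weak candidate region, at pooled rank 26674. In nhr-3 (WBGene00003602, chromosome X, 14558504 to 14561432, + strand) an intronic summit had a signal value of 115.9 in the pooled list (rank 814), 26.5 in replicate 1 (rank 4717, q = 0.343) and 90.7 in replicate 2 (rank 664). Like the summits of nhr-57 and nhr-8, it stood past rank 952 in replicate 1.

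Each replicate alone gave the same number of receptor genes but not the same genes. Among its 952 strongest regions, replicate 1 had a promoter summit at 7 receptor genes, the 5 named below with nhr-14 and nhr-91, and replicate 2 at the 7 of the pooled list. The share was 2.6% in each, against 1.67% of all protein-coding genes in replicate 1 and 1.99% in replicate 2. Both replicates had one at 5 receptor genes, nhr-68, nhr-35, nhr-1, nhr-49 and nhr-66 (1.86%), against 0.996% of all genes. Within the gene, the counts were 5 in replicate 1 (1.86%, against 2.04% of all genes) and 4 in replicate 2 (1.49%, against 1.49% of all genes). Of these, nhr-19 and nhr-66 were in both. nhr-14, a regulator of iron uptake, had a promoter rank of 641 in replicate 1 (summit at 8476371) and 14235 in replicate 2 (summit at 8476572). nhr-91, the counterpart of the vertebrate germ cell nuclear factor, had promoter ranks of 869 and 3113.

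**Figure D2:**
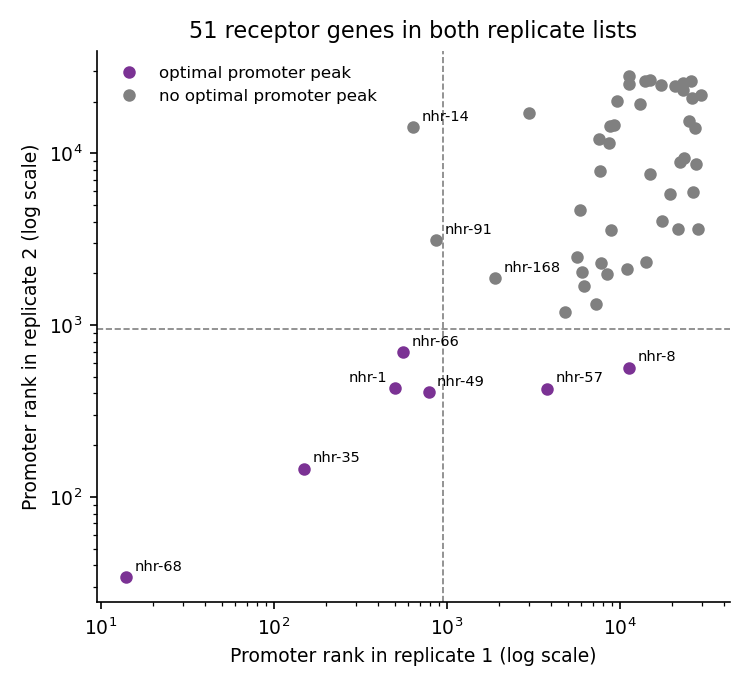
Promoter rank in replicate 1 (x) against replicate 2 (y), both on log scales, for the 51 receptor genes with a promoter summit in both replicate lists. Purple points are the 7 genes with an optimal promoter peak, grey points the others, and dashed lines mark rank 952. The 5 genes below both lines lie at the lower left, and nhr-57 and nhr-8 lie below the horizontal line only.

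Beyond the strongest regions, the replicates overlapped in part. A promoter summit of any rank was found at 84 receptor genes in replicate 1 (31.2%, against 27.6% of all genes) and at 89 in replicate 2 (33.1%, against 28.8%). There were 51 in both (19%, against 15.8% of all genes), which is 60.7% of the genes of replicate 1 and 57.3% of those of replicate 2. In 30 of the 51 the best summits of the replicates lay within 100 bp of each other (58.8%, against 57.7% of all genes found in both lists). Across the 51 genes, Spearman's rho of the ranks was 0.590, and without the 7 genes with an optimal promoter peak it was 0.437 over 44 genes. Over the 30 genes with summits within 100 bp, those with an optimal promoter peak included, it was 0.712. Across the 3162 protein-coding genes found in both lists it was 0.426. These correlations are over genes, which share the same libraries, and are descriptions only. The 5 largest rank differences were at nhr-135 (28091 in replicate 1 and 3606 in replicate 2), nhr-107 (26543 and 5984), nhr-43 (27480 and 8691), nhr-32 (21604 and 3641) and nhr-248 (11249 and 28263). The summits compared lay 111 bp apart at nhr-43 and 143 bp apart at nhr-32, and within 100 bp at the others.

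A larger share of receptor genes than of all genes had a candidate region, and most of these regions lay outside the optimal list. In the promoter window the shares differed most, in percentage points, once the weakest regions were counted. A pooled candidate summit lay in the promoter window of 96 receptor genes (35.7%, exact interval 30.0 to 41.7, counting error only), against 28.3% of all protein-coding genes. Up to rank 5000 the share was 8.92% (24 genes), against 7.59%. Up to rank 25000 it was 27.1% (73 genes), against 24.8%. The best promoter summits of receptor genes past that rank had the authors' q values of 0.873 to 0.899. More of the receptor genes had more than 1 annotated start (37.9%, against 27.4% of all genes), and each start adds a window. Its part in the higher share was not tested, and the shares by number of starts are given below. The median rank of the best promoter summit was 14893.5 over the 96 receptor genes, against 11831.5 over the 5660 protein-coding genes with one. Within the gene, 167 receptor genes (62.1%) held a candidate summit, against 52.1% of all genes, and the receptor genes were longer, at a median of 2309 bp against 2027 bp. Per length of gene the receptor genes held 0.382 candidate summits per kb, against 0.325 for all protein-coding genes. Their optimal summits inside genes numbered 4.32 per Mb, against 5.43 per Mb. The rate of the receptor genes rests on the few summits in nhr-19, nhr-66 and nhr-3 alone. Neither the window nor the gene held a candidate summit in 87 receptor genes (32.3%), against 40.8% of all genes.

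**Figure D3:**
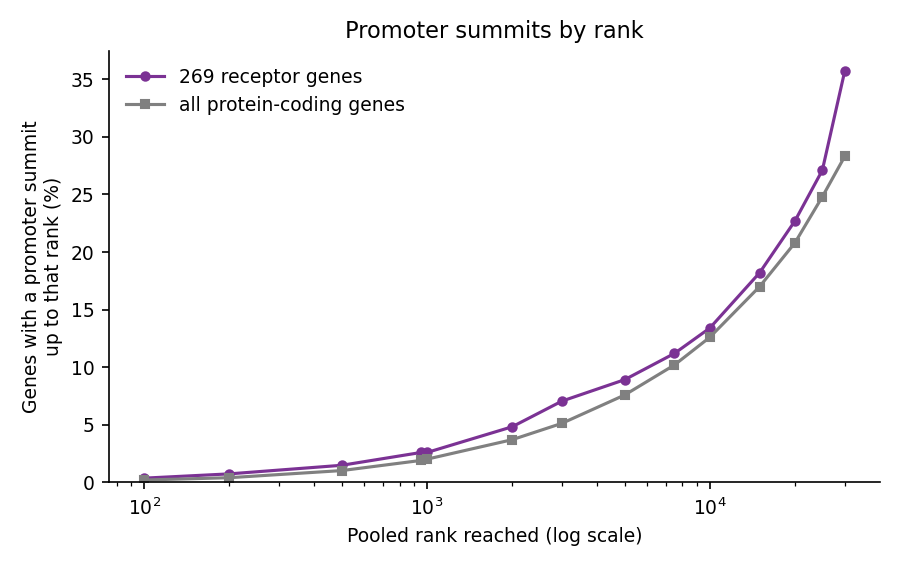
Percentage of the 269 receptor genes (purple) and of all protein-coding genes (grey) whose best pooled promoter summit reached the rank on the x axis (log scale). The receptor genes stood at 2.6% against 1.91% at rank 952, and at 35.7% against 28.3% over the whole list, where the lines are farthest apart.

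Immediately outside the optimal list, the receptor gene with the best promoter rank was nhr-168 (WBGene00008221, chromosome V), with a signal value of 106.6 at pooled rank 1053 and ranks 1895 and 1879 in replicates 1 and 2. It was followed by nhr-256 (chromosome V, rank 1301, signal value 99.6), nhr-91 (chromosome X, rank 1330) and nhr-31, which acts in the tubular excretory cell (chromosome IV, rank 1654). The next were nhr-177 (rank 1817), nhr-47 (rank 1992, in a window shared with dnj-19), nhr-14 (rank 2154), nhr-56 (rank 2444), nhr-50 (rank 2446) and nhr-40, a gene of body wall muscle development (rank 2548). The weakest promoter peak inside the list, nhr-8, had a signal value of 115.1 at rank 836.

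Another gene of vitamin B12-dependent metabolism had a strong region that the window did not reach. nhr-114 (WBGene00003704, chromosome V, 4187202 to 4190008, + strand), which protects the germ line on some bacterial diets, had an optimal peak at 4186610, an offset of -592 bp from its nearest start, with a signal value of 153.2. Its rank was 355 in the pooled list, 306 in replicate 1 and 447 in replicate 2, a better rank than that of nhr-49 in the pooled list and in replicate 1. The summit lay inside the gene Y45G5AM.9. Within the 500 bp window of any of its starts, nhr-114 held only a weaker region, at rank 2769. The summit of that region, at 4188281, lay in a coding exon, at an offset of -215 bp from an internal start. A window of 1000 bp upstream therefore gave 8 receptor genes in place of 7, and nhr-114 was the one added.

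Of the 7 genes with an optimal promoter peak, 5 were on a list by role, and nhr-35 and nhr-1 were on none. Together the lists held 29 of the 269 receptor genes. They overlap, and nhr-49 and nhr-8 were each on more than 1. These lists were drawn up with earlier results of these data known, so their counts are descriptions and carry no support for a theme. Over all protein-coding genes 28.3% had a pooled promoter candidate and 1.91% an optimal promoter peak. The lists are short, and their counts were not tested against those shares. Of 11 receptor genes of fat, propionate and vitamin B12 metabolism, 8 had a pooled promoter candidate and 3 an optimal promoter peak (nhr-68, nhr-49 and nhr-66), with a median pooled rank of 6526.5 over the 8. The other candidates were nhr-114 (rank 2769), nhr-64 (rank 10284), nhr-13 (rank 14782), nhr-62 (rank 24338) and nhr-80 (rank 24686). nhr-10, the partner of nhr-68, had no promoter candidate in any of the 3 lists, and its best region, in an intron, had pooled rank 6712. nhr-13 and nhr-80, whose products bind NHR-49, thus had no optimal promoter peak.

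Of 7 receptor genes of xenobiotic, stress and pathogen responses, 5 had a promoter candidate and 2 an optimal peak (nhr-57 and nhr-8), and nhr-14 came after them. For this list and those below, the shares over all protein-coding genes were 28.3% with a candidate and 1.91% with an optimal peak. Of 12 receptors with clear counterparts in other animals, 7 had a promoter candidate (median rank 10284) and 2 an optimal peak (nhr-49 and nhr-8), followed by nhr-91. Of 9 receptor genes of moulting and development, 5 had a promoter candidate (median rank 11180) and 0 an optimal peak, which allows a share of up to 33.3% (3 counts of the total, an approximate limit for a count of 0 that covers counting error only). Their best 3 were nhr-91 (rank 1330), nhr-40 (rank 2548) and nhr-25 (rank 11180). nhr-23, the counterpart of the vertebrate ROR receptors in moulting, had pooled promoter rank 28490. nhr-67, the tailless-type receptor, had no candidate summit in the window or the gene in any list. The 240 receptor genes in none of these lists held 2 of the promoter peaks, nhr-35 and nhr-1, and had a median promoter rank of 16176 over the 78 with a candidate.

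The optimal promoter summits all lay upstream of a start. The 7 offsets ran from -390 to -10 bp with a median of -352 bp, against 341 of 382 genes (89.3%) upstream and a median of -175 bp over all genes with an optimal promoter peak. The window itself lies mostly upstream. Over the 96 receptor genes with any pooled promoter candidate, 58 summits (60.4%) lay upstream, against 70% over all genes. A narrower window, from 300 bp upstream to 100 bp downstream, kept only nhr-57, nhr-66 and nhr-8.

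**Figure D4:**
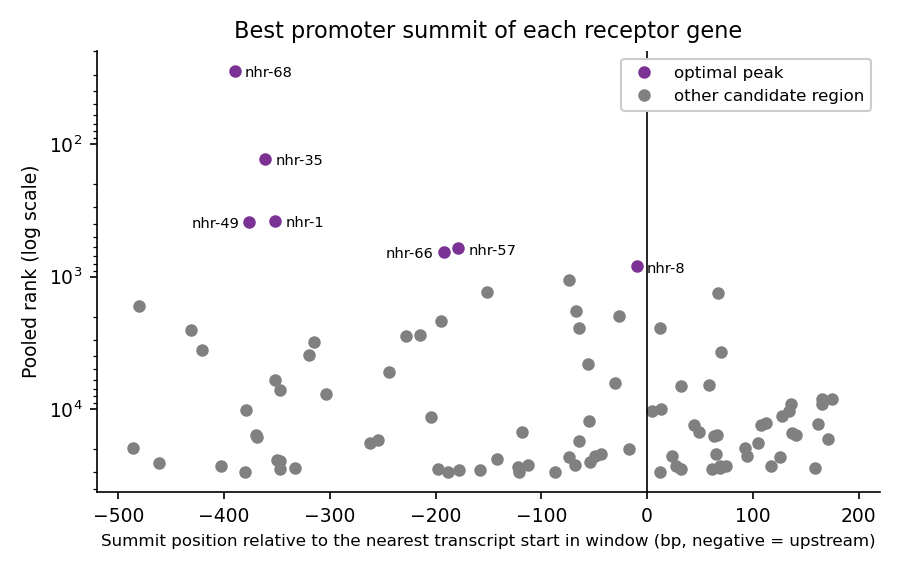
Position of the best pooled promoter summit of 96 receptor genes relative to the nearest transcript start whose window holds it (x, bp, negative upstream) and its pooled rank (y, log scale, strongest at the top). The 7 optimal peaks (purple) lie at or above -390 bp and below 0, and 4 of them lie between -390 and -352 bp. Other candidate regions (grey) spread over the whole window.

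Most receptor genes lie on chromosome V, but most of the peaks did not. Chromosome V held 167 of the 269 receptor genes and 2 of the 7 promoter peaks, nhr-68 and nhr-57 (1.2%, against 1.38% of all protein-coding genes of that chromosome). The X chromosome held 23 receptor genes and also 2 peaks, nhr-35 and nhr-1 (8.7%, against 3.11%). Chromosome IV held 33 and 2 peaks (6.06%, against 1.83%), and chromosome I held 23 and 1 peak (4.35%, against 1.74%). None of the 15 receptor genes on chromosome II or the 8 on chromosome III had one, which allows shares of up to 20% and 37.5% by the same limit of 3 counts. A candidate summit of any rank was found at 13 of the 23 X-linked receptor genes (56.5%, against 37.9%) and at 58 of the 167 on chromosome V (34.7%, against 25.6%). In the middle 50% of the autosomes 4 of 95 receptor genes had a promoter peak (4.21%, against 1.92% of all genes there), and on the arms 1 receptor gene did (0.662%, against 1.48%). Sharing of reads between near-identical copies was not examined.

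**Figure D5:**
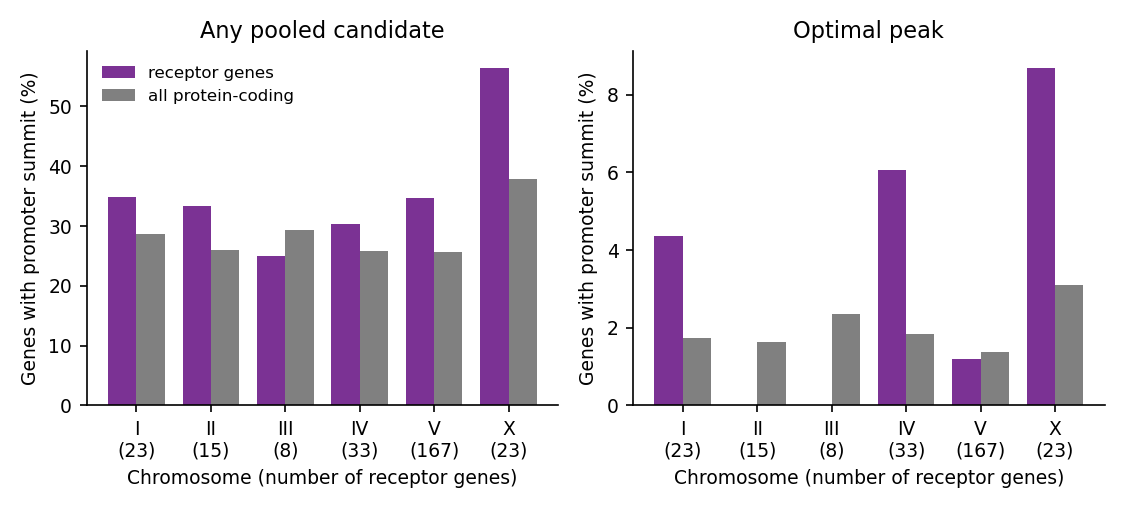
Percentage of receptor genes (purple) and of all protein-coding genes (grey) with a promoter summit on each chromosome, for any pooled candidate region (left) and for optimal peaks (right), with the number of receptor genes in brackets. On chromosome V the optimal shares are 1.2% of receptor genes and 1.38% of all genes, and the taller purple bars on chromosomes I, IV and X rest on 1, 2 and 2 genes.

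Receptor genes with several annotated starts held most of the peaks. Of the 102 with more than 1 start, 6 had an optimal promoter peak (5.88%, against 3.18% of all such genes), and of the 167 with 1 start, 1 did, nhr-57 (0.599%, against 1.43%). A pooled promoter candidate of any rank was found at 52% of the receptor genes with more than 1 start, against 42.8% of all such genes. With 1 start the shares were 25.7% and 22.9%. Genes with more starts have more windows and were longer, at a median of 3204 bp against 2026 bp among the receptor genes.

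At the optimal promoter peaks of receptor genes, the short words searched for had shares close to those of all optimal peaks. This holds as far as 7 peaks can show. The intronic optimal summits of nhr-19 and nhr-3 had none of the words within 75 bp. CTGCGTC, or its reverse complement GACGCAG, was found within 75 bp of 1 of the 7 optimal promoter summits, that of nhr-1 (14.3%), against 10.7% of all 952 optimal peaks and 2.96% of the 30000 pooled candidate regions. Over the best summits of the 96 receptor genes it was found at 10 (10.4%). The word CTGCGTC was chosen with earlier results of these data known, so its shares are descriptions and carry no support for an enrichment. TGATAA, the core of sites bound by GATA factors of the intestine, or its reverse complement TTATCA, was found at 2 of the 7, nhr-68 among them (28.6%), against 28.8% of optimal peaks and 13.7% of candidate regions. AGGTCA, a single site of many nuclear receptors, or TGACCT was found at 0 of the 7, 4.41% of optimal peaks and 4.44% of candidate regions. None of the 7 windows held more than 1 of the 3 words, and a match is a description of the letters only. The GC content of these windows ran from 37.7% at nhr-68 to 51.7% at nhr-1, with a median of 46.4% over the 7, against 45% over all optimal peaks.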

How the data were processed

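ZTF-22 ChIP-seq of whole young adult worms was analysed from region lists of 2 biological replicates, numbered in the labels, and of their pooled reads, all on ce11. Per the deposited descriptions, each candidate list was made from the alignments and 1 further file that all 3 lists share, and the optimal list from those 3. No source used here names the aligner, the peak caller, their versions or thresholds. The authors' signal value is a score with its own scale in each deposited list, and the deposited q-value is given as -log10 q (lowest and highest q in the pooled list 0.00137 and 0.9). Alignments, coverage tracks and the control were not analysed here. All list coordinates fitted the chromosome lengths of WBcel235, and genes came from Ensembl release 115. Positions count from 1, and a summit is the region's start plus its peak offset.

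With 1 group there was no test: counts and medians are set beside those of all protein-coding genes. The members, the role lists and the word CTGCGTC were chosen with earlier results of these data known. Genes were named when they had an optimal summit in the window or gene, were among the next 10 by promoter rank, the best 3 of a role list or the 5 largest replicate differences. nhr-10, nhr-13, nhr-17, nhr-23, nhr-27, nhr-62, nhr-64, nhr-67, nhr-80, nhr-102, nhr-114, odr-7 and the intronic sequence were chosen after their values were seen. Sequences are from the RefSeq WBcel235 genome. Those of some of the named summits are not reported here. The assignment of summits was tested on simulated data and equalled a full scan at 500 of 500 genes. Other windows, starts, overlap rules and each replicate alone were tried. Python 3.11.15, NumPy 2.4.6 and matplotlib 3.10.9 were used.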

Additional observations from a re-analysis of the deposited data

How the results depend on the processing

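The count of 7 receptor genes with an optimal promoter peak was 8 with a window of 1000 bp upstream or with any overlap of region and window, 6 with the most upstream start only, 3 with a window of 300 bp upstream and 100 bp downstream, and 4 with the 476 strongest optimal peaks. Without replicate 1 and without replicate 2 it was 7 each time, with 7 and 5 genes shared with the pooled result. The count of 3 with an optimal summit in the gene was 1 with the 476 strongest peaks and 6 with any overlap, which adds nhr-8, nhr-57 and nhr-102, and it ran from 4 to 5 with a replicate left out. The count of 5 in both replicates was 1 with the narrow window (nhr-66), 6 with the wide window or any overlap, and 4 with 1 start a gene. The 96 genes with a promoter candidate ranged from 66 to 124. The median promoter rank of 14893.5 was 12909 with the wide and 15795 with the narrow window, and ran from 13153 to 13440 in the list of a single replicate. The narrow window reaches fewer bases by construction. The read depth is unknown, and its part in the differences between replicates was not tested. No paired analysis was possible because there was 1 group.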

Other observations

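Beside the receptor genes named nhr-, 5 other nuclear receptor genes have names of their own: daf-12, fax-1, odr-7, sex-1 and unc-55. None had an optimal peak in the promoter window or within the gene. fax-1 had a promoter summit at pooled rank 9687, unc-55 at 11810 and daf-12 at 13256. In an intron of daf-12, the receptor for the steroid hormones that control dauer formation, a summit reached pooled rank 1282, with best ranks within the gene of 900 in replicate 1 and 2933 in replicate 2. In odr-7, a gene of olfactory neurons, only the list of replicate 1 held a candidate summit, at a best rank of 6767.

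Past the end of nhr-102 (WBGene00003692, chromosome V, 15874093 to 15876408, - strand) an optimal peak with its summit at 15873931 had pooled rank 224, with ranks 70 and 448 in replicates 1 and 2. The summit lay between genes and the region touched the end of nhr-102, so that neither the promoter window nor the gene counted it. Inside nhr-17 on the X chromosome, the best region ranked 298 in replicate 1 and 1059 in replicate 2, at summits 12664599 and 12665312, and the pooled list had its best one at 12665957 with rank 1255, so the 3 lists chose different places in the gene. nhr-27, the longest receptor gene at 102756 bp, held 36 pooled candidate summits and no optimal peak.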
